A study of Homo sapiens with 15 samples.

Results

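The interleukin 1 (IL1) family was followed in RNA sequencing libraries of HSC5, a cell line of human skin squamous cell carcinoma. The 10 members are the rows of the count tables whose gene symbol is IL1A, IL1B, IL18, IL33, IL36G, IL1RN, IL36RN, IL1R1, IL1R2 or IL1RAP, out of 60649 gene entries. The study asked what the methyltransferase PRMT5 and its binding partner WDR77 do together in squamous cancer cells, and targeted each gene with a pair of CRISPR guide RNAs (sgRNAs). There were 15 libraries, 3 for each of 5 groups. The control sgNeg, called an empty vector in captions of the paper, has the genotype WT in the labels. The guides sgPRMT5-1 and sgPRMT5-2 (sgPRMT5#1 and sgPRMT5#2 in the labels) carry the genotype PRMT5 Knockout, and sgWDR77-1 and sgWDR77-2 the genotype WDR77 Knockout. Neomycin is given as the treatment of all 5 groups, the control included. The paper calls these replicates biological and describes its quantitative data in general as coming from independent experiments. The sources do not say whether each line is a clone or a pool, or at which step (infection or culture) the replicates of these libraries were separate, so the p-values measure only the spread between these libraries. Reads counted on genes ranged from 5146711 to 6730428 per library, with a median of 5806938. Replicates differed by more than counting error. For each pair of libraries in a group, the chi-square of their gene counts, divided by its degrees of freedom, lay between 1.55 and 17.7, where counting error alone would give about 1. In sgWDR77-1, replicate 1 stood apart from 2 and 3 (12.5 and 17.7, against 3.21 between these), and 3.57% of its reads matched no counted feature of a gene, against 6.04% and 5.70%. In sgNeg, replicate 2 was the farther from the others (9.16 and 6.44, against 3.86), and 7.16% of its reads matched no counted feature, against 2.84% and 3.56%. Also apart from their groups were sgPRMT5-1 replicate 3 (6.04 and 5.38, against 2.02) and sgWDR77-2 replicate 1 (4.97 and 6.78, against 2.03). Calls that change when a library is left out are given with the gene or with the count of its list.

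Each comparison below asks how a guide changed the family against sgNeg, and the 4 comparisons with sgNeg share its 3 libraries. Levels are in CPM, counts scaled to a common normalized library size. A gene is said to rise or fall where its adjusted p was under 0.05 in a fit over all 14061 genes with a mean of at least 3 normalized counts (limma voom, two-sided, Benjamini-Hochberg adjustment).

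The targeted genes were read first. PRMT5 had 349, 302 and 374 counts in the sgNeg libraries, 216, 211 and 242 in sgPRMT5-1, and 284, 262 and 233 in sgPRMT5-2. In sgWDR77-1 it had 295, 347 and 298 counts, and in sgWDR77-2 415, 369 and 358. Its CPM in both PRMT5 groups lay below all sgNeg libraries, with log2 fold changes of -0.67 (SE 0.132, adjusted p 0.00570) for sgPRMT5-1 and -0.45 (SE 0.130, adjusted p 0.0114) for sgPRMT5-2. WDR77 had 739, 692 and 657 counts in sgNeg, 167, 281 and 292 in sgWDR77-1, and 138, 141 and 122 in sgWDR77-2. In sgPRMT5-1 it had 875, 703 and 909 counts, and in sgPRMT5-2 813, 764 and 705. WDR77 fell with both of its guides, by -1.43 (SE 0.148, adjusted p 2.01e-06) and -2.29 (SE 0.165, adjusted p 6.89e-09) on the log2 scale. Part of the mRNA of each target thus remained in every library. These counts do not measure the protein or the edit in the gene. By Western blot, in HSC5 among other lines, the paper reports that depleting either gene lowered both proteins. The strand setting and annotation release of the counting are not given, and both targets share exon bases with a neighbouring gene. PRMT5 shares 924 with PRMT5-AS1, and WDR77 shares 673 (25.1% of its exon bases) with ENSG00000243960 on the same strand and 90 with ATP5PB.

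Markers of squamous keratinocytes were present, with an exception. Of 8 such genes, none was at 0 in any library, SFN was the most abundant per kilobase of exon in every library, and TP63 had 1735 to 2859 counts, but KRT14 had only 1 to 4 counts per library. Their summed CPM was 1856, 1869 and 2187 in sgNeg, 1784, 1786 and 1663 in sgPRMT5-1, and 1444, 1370.2 and 1434 in sgPRMT5-2. It was 1616, 1334 and 1312 in sgWDR77-1, and 1519, 1490.1 and 1541 in sgWDR77-2. All 12 libraries with a targeting guide were below the lowest sgNeg library. Most of that difference was in KRT5, which had 3025, 3881 and 4504 counts in sgNeg and 2191 or fewer in every other library, down to 185 in sgWDR77-1. Of the 7 keratinocyte markers tested, 1 rose and 3 fell in sgPRMT5-1, 1 rose and 4 fell in sgPRMT5-2, 0 rose and 3 fell in sgWDR77-1, and 1 rose and 2 fell in sgWDR77-2. Of all genes, in that order of guides, 1.26%, 16.3%, 3.58% and 1.81% rose and 1.61%, 14.7%, 5.9% and 2.98% fell. None rose in sgPRMT5-1 without sgNeg replicate 2 or sgPRMT5-1 replicate 2 or 3, or in sgWDR77-2 without sgNeg replicate 1 or 2 or any library of sgWDR77-2. The part of this shift in the changes of the IL1 family was not tested.

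Leukocytes are a usual source of IL1. Of 6 leukocyte markers, PTPRC had 1 read over all 15 libraries, CD3E 0 and LYZ 2, while CD14 had 85, CSF1R 78 and ITGAM 108. The 6 leukocyte markers summed to 1.86, 1.64 and 1.63 CPM in sgNeg, 3.82, 3.06 and 3.60 in sgPRMT5-1, and 3.73, 4.42 and 5.25 in sgPRMT5-2. They summed to 2.96, 1.67 and 5.66 CPM in sgWDR77-1 and to 3.47, 2.65 and 1.80 in sgWDR77-2, with CD14 the most abundant per kilobase of exon, at 0.587 CPM. Of 3 tested, ITGAM and CSF1R rose in sgPRMT5-2 and ITGAM in sgWDR77-1, all from few reads. The count of 2 in sgPRMT5-2 was 1 without sgNeg replicate 1 or sgPRMT5-2 replicate 1 and 0 without any of the other 4 libraries compared. It was 1 as well by library totals, with no filter and with the replicate block. In sgWDR77-1 the count of 1 was 0 without any sgNeg library or sgWDR77-1 replicate 1 or 3, with no filter and with only the groups compared.

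The 5 fibroblast markers were nearly all COL1A1, with COL1A2 at 0 reads, DCN at 1 and PDGFRA at 2. They summed to 13.2, 14.5 and 11.2 CPM in sgNeg, 13.0, 7.47 and 10.1 in sgPRMT5-1, and 6.53, 7.14 and 11.3 in sgPRMT5-2. In sgWDR77-1 the sum was 9.24, 11.1 and 15.5 CPM, and in sgWDR77-2 8.86, 13.4 and 10.3. COL1A1, the 1 tested, fell in sgPRMT5-2 (log2 -0.65, adjusted p 0.0477), a call lost without sgNeg replicate 1 or 2 or sgPRMT5-2 replicate 1 or 2, with the replicate block and by limma-trend. The 3 endothelial markers were mostly CDH5, with 10 reads of PECAM1 in all. Their sum was 22.9, 16.6 and 24.9 CPM in sgNeg, 19.7, 21.4 and 12.7 in sgPRMT5-1, and 15.2, 17.2 and 17.3 in sgPRMT5-2. It was 34.2, 31.3 and 36.1 CPM in sgWDR77-1, above all other groups, and 19.6, 19.3 and 19.6 in sgWDR77-2. Of 2 tested, CDH5 rose in sgWDR77-1 (log2 0.80, adjusted p 0.00325) and VWF fell in sgPRMT5-2 (log2 -2.28, adjusted p 0.00389), from 50 reads in sgNeg to 12. The part of these marker shifts in the changes of the family was not tested.

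IL1 family cytokines carry alarm signals between cells. IL1A and IL1B bind the receptor IL1R1, which pairs with IL1RAP and signals through MYD88 to NF-kappaB, while IL1RN occupies the receptor without signalling and IL1R2 binds IL1 as a decoy. Keratinocytes store the IL1A protein and release it on injury, whereas IL1B and IL18 are made as precursors that caspase 1 cleaves.

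IL1A (ENSG00000115008.6, chr2:112773925-112784493) and IL1B (ENSG00000125538.12, chr2:112829751-112836816) are neighbours on the minus strand of chromosome 2 in GRCh38. IL36G, IL36RN and IL1RN lie farther along, the last at chr2:113099315-113134016. The receptors IL1R2 and IL1R1 form another cluster on chromosome 2 with IL1RL1 and IL18R1, IL1RAP lies on chromosome 3, IL18 on chromosome 11 and IL33 on chromosome 9. RefSeq promoters (GRCh38.p14) were at hand for 9 of the 10 members, all but IL18. Their 18 windows of 250 bases before a start were searched on both strands for the AP-1 motif TGACTCA and for the kappaB motif by name. AP-1 was found in 3 windows, of the agonist IL1A and the antagonist IL1RN, beside 4.203% of 35116 promoters. Of these, 2 are windows of IL1A that overlap and share a match, so the 3 windows are not separate finds. The kappaB motif was found in IL1R2 alone, from -125 to -116, against 9.96% of promoters. No AP-1 match overlapped the kappaB match. The promoters of IL1A and IL1B are shown because these neighbours moved most among the abundant members with the PRMT5 guides, and that of IL1RN because this gene fell in sgPRMT5-1. AP-1 matches are in capitals, bases that the annotation places in an exon of the same gene are left out, and the windows are chr2:112784494-112784743 (minus strand) for IL1A, chr2:112836817-112837029 (minus strand) for IL1B and chr2:113117721-113117892 (plus strand) for IL1RN.
IL1A: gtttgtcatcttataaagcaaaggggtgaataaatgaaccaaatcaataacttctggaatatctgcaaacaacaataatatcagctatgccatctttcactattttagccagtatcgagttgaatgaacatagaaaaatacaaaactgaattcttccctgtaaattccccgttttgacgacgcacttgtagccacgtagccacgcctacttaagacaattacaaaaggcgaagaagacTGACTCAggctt
IL1B: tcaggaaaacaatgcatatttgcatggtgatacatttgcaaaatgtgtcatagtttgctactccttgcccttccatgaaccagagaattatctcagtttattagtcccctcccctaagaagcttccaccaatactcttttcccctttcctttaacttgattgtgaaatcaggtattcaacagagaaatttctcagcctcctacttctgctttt
IL1RN: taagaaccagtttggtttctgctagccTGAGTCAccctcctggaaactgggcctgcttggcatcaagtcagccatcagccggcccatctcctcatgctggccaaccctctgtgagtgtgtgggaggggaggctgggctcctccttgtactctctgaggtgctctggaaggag
The match shown in IL1A lies from -12 to -6 before its start, which is -105 to -99 before the start of the other window. That window holds another AP-1 match from -55 to -49, which is not shown. The match in IL1RN lies from -223 to -217 before the start of a transcript inside the gene. These matches are letters in a window and say nothing of a factor's binding.

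IL1A, an agonist that is active as its precursor, was read at 173, 139 and 129 CPM in sgNeg. It was at 278, 297 and 258 CPM in sgPRMT5-1 and at 505, 494 and 528 in sgPRMT5-2. In sgWDR77-1 it was at 221, 193 and 219 CPM, and in sgWDR77-2 at 220.1, 249 and 243. Every library with a targeting guide was above every sgNeg library, sgPRMT5-2 stood above all others, and the WDR77 guides overlapped each other below sgPRMT5-1. The means were 147 CPM (SD 22.9) in sgNeg, 278 (SD 19.7) and 509 (SD 17.2) with the PRMT5 guides, and 211 (SD 15.9) and 237 (SD 15.2) with the WDR77 guides. IL1A rose in sgPRMT5-1 by 0.93 on the log2 scale (SE 0.102, adjusted p 1.13e-05), which is 1.90-fold. In sgPRMT5-2 it rose by 1.80 (SE 0.1002, adjusted p 3.23e-11), which is 3.49-fold. It rose by 0.53 (SE 0.104, adjusted p 0.00235) in sgWDR77-1 and by 0.70 (SE 0.103, adjusted p 0.000171) in sgWDR77-2.

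IL1B, an agonist that needs cleavage, was read at 107, 100.1 and 90.9 CPM in sgNeg. It was at 229.9, 240.4 and 249.8 CPM in sgPRMT5-1 and at 488, 470.0 and 495 in sgPRMT5-2. In sgWDR77-1 it was at 113, 111 and 116 CPM, and in sgWDR77-2 at 181, 146 and 139. No group overlapped its neighbour in level: sgPRMT5-2 was highest, then sgPRMT5-1, sgWDR77-2, sgWDR77-1 and sgNeg. The mean was 99.3 CPM (SD 8.09) with sgNeg, and with the PRMT5 guides 240.0 (SD 9.94) and 485 (SD 13.1), and with the WDR77 guides 113 (SD 2.33) and 155 (SD 22.6). IL1B rose in sgPRMT5-1 by 1.27 (SE 0.0979, adjusted p 1.17e-07), or 2.42-fold, and in sgPRMT5-2 by 2.29 (SE 0.0959, adjusted p 4.60e-13), or 4.88-fold. It rose by 0.64 (SE 0.1002, adjusted p 0.000352) in sgWDR77-2. In sgWDR77-1 its change of 0.19 did not pass the test (adjusted p 0.264), with a 95% interval from -0.02 to 0.40.

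**Figure D1:**
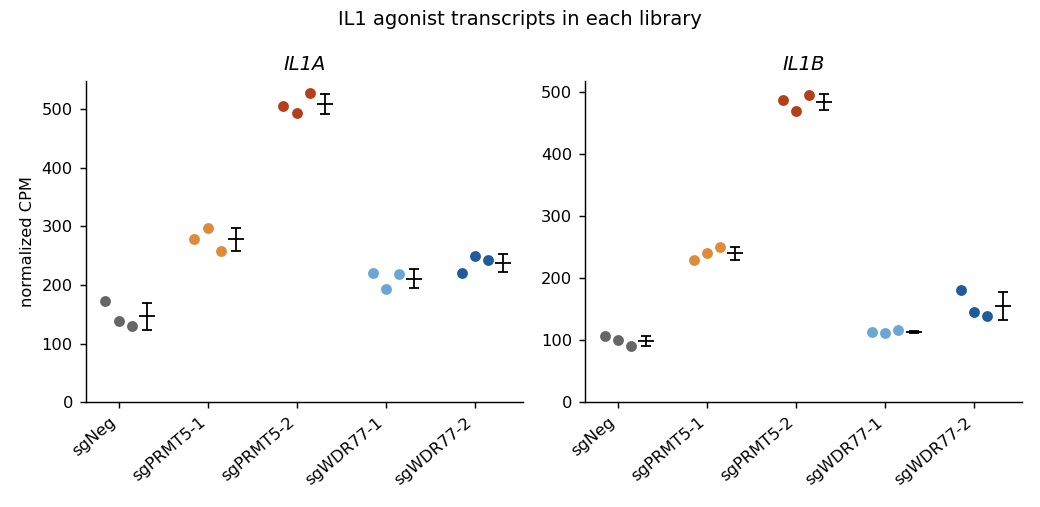
Normalized CPM (y axis) of the agonists IL1A and IL1B in each library, by guide (x axis); points are libraries, and the black marks are group means with SD (n = 3). IL1A and IL1B stand highest in sgPRMT5-2, at 509 and 485 CPM, and lowest in sgNeg.

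Both agonists differed between the PRMT5 guides. IL1A was higher in sgPRMT5-2 than in sgPRMT5-1 by 0.88 on the log2 scale (SE 0.0971, adjusted p 4.87e-06), and IL1B by 1.01 (SE 0.0909, adjusted p 2.49e-07). The mRNA of PRMT5 itself differed by 0.22 between them (adjusted p 0.330, 95% interval -0.06 to 0.51), which does not compare their protein. WDR77 was lower in sgWDR77-2 than in sgWDR77-1, by -0.85 (SE 0.178, adjusted p 0.0157). That call was lost without sgWDR77-2 replicate 1 (adjusted p 0.0674) or 2 (0.0620) and with only those groups in the fit (0.177), over a range of 7.14e-05 to 0.177. Between the WDR77 guides, IL1A differed by 0.17 (adjusted p 0.372, 95% interval -0.04 to 0.38), with overlapping libraries. IL1B was higher in sgWDR77-2 than in sgWDR77-1 by 0.45 (SE 0.0997, adjusted p 0.0216), without overlap. That call was lost without sgWDR77-1 replicate 2 (adjusted p 0.0573), sgWDR77-2 replicate 1 (0.180) or sgWDR77-2 replicate 2 (0.0594), and with only those groups in the fit (0.234), over a range of 0.0176 to 0.234. With the guides of each gene averaged, IL1A was higher with PRMT5 than with WDR77 guides by 0.75 (SE 0.0702, adjusted p 1.34e-07) and IL1B by 1.37 (SE 0.0675, adjusted p 7.15e-12). These SEs hold the spread between libraries and not that between the guides of a gene.

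IL18, a caspase 1 substrate that drives interferon gamma, was read at 67.2, 50.8 and 52.8 CPM in sgNeg. It was at 62.0, 63.3 and 59.9 CPM in sgPRMT5-1 and at 78.4, 71.4 and 78.0 in sgPRMT5-2. In sgWDR77-1 it was at 99.9, 78.5 and 77.2 CPM, and in sgWDR77-2 at 53.9, 77.0 and 68.0. Each group overlapped its neighbour in the order sgWDR77-1, sgPRMT5-2, sgWDR77-2, sgPRMT5-1, sgNeg, with means of 85.2 (SD 12.8), 75.9 (SD 3.92), 66.3 (SD 11.6), 61.8 (SD 1.71) and 56.9 CPM (SD 8.97). The libraries of sgPRMT5-2 and sgWDR77-1 lay above all those of sgNeg. IL18 rose by 0.42 (SE 0.132, adjusted p 0.0178) in sgPRMT5-2 and by 0.58 (SE 0.132, adjusted p 0.00735) in sgWDR77-1. It did not pass the test in sgPRMT5-1 (0.13, adjusted p 0.674) or sgWDR77-2 (0.22, adjusted p 0.398), and did not differ between the guides of either gene by the test (adjusted p 0.166 and 0.131). With only the groups compared in the fit, the PRMT5 guides differed in IL18, by 0.30 in favour of sgPRMT5-2 (adjusted p 0.0160, range 0.0160 to 0.341). The call in sgPRMT5-2 was lost without sgNeg replicate 2 (adjusted p 0.0961), sgNeg replicate 3 (0.0884), sgPRMT5-2 replicate 1 (0.0757) or its replicate 3 (0.0772), over a range of 0.00234 to 0.0961. That in sgWDR77-1 was lost without sgNeg replicate 3 (0.0533), over a range of 0.00476 to 0.0533.

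IL36G, an agonist of epithelia, had 0, 1 and 1 reads in sgNeg. It had 4, 6 and 2 reads in sgPRMT5-1, 13, 8 and 6 in sgPRMT5-2, 0, 4 and 14 in sgWDR77-1, and 7, 2 and 5 in sgWDR77-2. All groups with a targeting guide but sgWDR77-1, whose replicate 1 had 0 reads, lay above sgNeg. Against the 2 reads of sgNeg, the summed normalized count was 5.75 times as high in sgPRMT5-1 (95% counting interval 1.28 to 52.9) and 13.0 times in sgPRMT5-2 (3.26 to 113). It was 9.67 times as high in sgWDR77-1 (2.31 to 85.9) and 7.47 times in sgWDR77-2 (1.72 to 67.7), and these intervals cover counting error only. By the fit IL36G rose in sgPRMT5-2 (log2 3.08, SE 0.886, adjusted p 0.0112) and passed in no other group against sgNeg (adjusted p 0.302, 0.309 and 0.190). Without sgNeg replicate 1 the call in sgPRMT5-2 was lost (log2 2.52, adjusted p 0.0895, range 0.00236 to 0.0895), and limma-trend gave 1.96 on the log2 scale. Without sgWDR77-1 replicate 1, IL36G passed in sgWDR77-1 (log2 3.07, adjusted p 0.0153, range 0.0153 to 0.749).

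IL33, a nuclear alarmin that acts on the receptor IL1RL1, had 0 to 6 reads per library and lay under the filter. It had 9 reads over the sgNeg libraries, 7 and 1 with the PRMT5 guides, and 13 and 10 with the WDR77 guides. The ratio of sgPRMT5-2 to sgNeg was 0.107 (95% counting interval 0.00243 to 0.770). At this depth no difference was detectable for the other guides, whose intervals include equality. With no filter on low counts, the only setting that tested it, IL33 fell in sgPRMT5-2 (log2 -2.29, SE 0.563, adjusted p 0.00874) and was lower with PRMT5 than with WDR77 guides (log2 -1.66, adjusted p 0.0120). Both calls lean on the 1 read of sgPRMT5-2, whose counting interval against sgNeg reaches 0.770.

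The antagonist IL1RN was read at 9.31, 6.90 and 9.43 CPM in sgNeg. It was at 3.67, 1.53 and 3.77 CPM in sgPRMT5-1, from 24, 9 and 22 counts, and at 6.37, 6.12 and 7.28 in sgPRMT5-2. With sgWDR77-1 it stood at 6.83, 6.85 and 6.57 CPM, and in sgWDR77-2 at 6.74, 8.30 and 8.10. The sgPRMT5-1 libraries lay below all others. In the order sgNeg, sgWDR77-2, sgWDR77-1, sgPRMT5-2, each group overlapped its neighbour. The sgWDR77-1 libraries lay just below those of sgNeg (highest 6.85 against lowest 6.90 CPM). Means were 8.55 CPM (SD 1.43) in sgNeg and 2.99 (SD 1.26) in sgPRMT5-1. IL1RN fell in sgPRMT5-1, with a log2 fold change of -1.57 (SE 0.286, adjusted p 0.00299), and passed in no other group against sgNeg (-0.36, -0.32 and -0.13, adjusted p 0.238, 0.428 and 0.812). In bulk RNA, fewer cells of a type and less RNA per cell cannot be told apart. IL1RN was higher in sgPRMT5-2 than in sgPRMT5-1 by 1.21 (SE 0.293, adjusted p 0.0142). This call was lost without sgPRMT5-1 replicate 2 (0.81, adjusted p 0.111) or sgPRMT5-2 replicate 3 (1.13, adjusted p 0.0589), over a range of 0.00746 to 0.111.

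IL36RN, which blocks the receptor of the IL36 cytokines, was read at 2.54, 2.96 and 5.80 CPM in sgNeg. It was at 2.75, 4.58 and 3.77 CPM in sgPRMT5-1 and at 4.20, 4.76 and 3.05 in sgPRMT5-2. With sgWDR77-1 it stood at 4.06, 4.44 and 5.47 CPM, and in sgWDR77-2 at 4.04, 4.59 and 6.84. All groups overlapped, and none passed the test against sgNeg (log2 0.04, 0.17, 0.40 and 0.53, adjusted p 0.965, 0.723, 0.479 and 0.384).

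**Figure D2:**
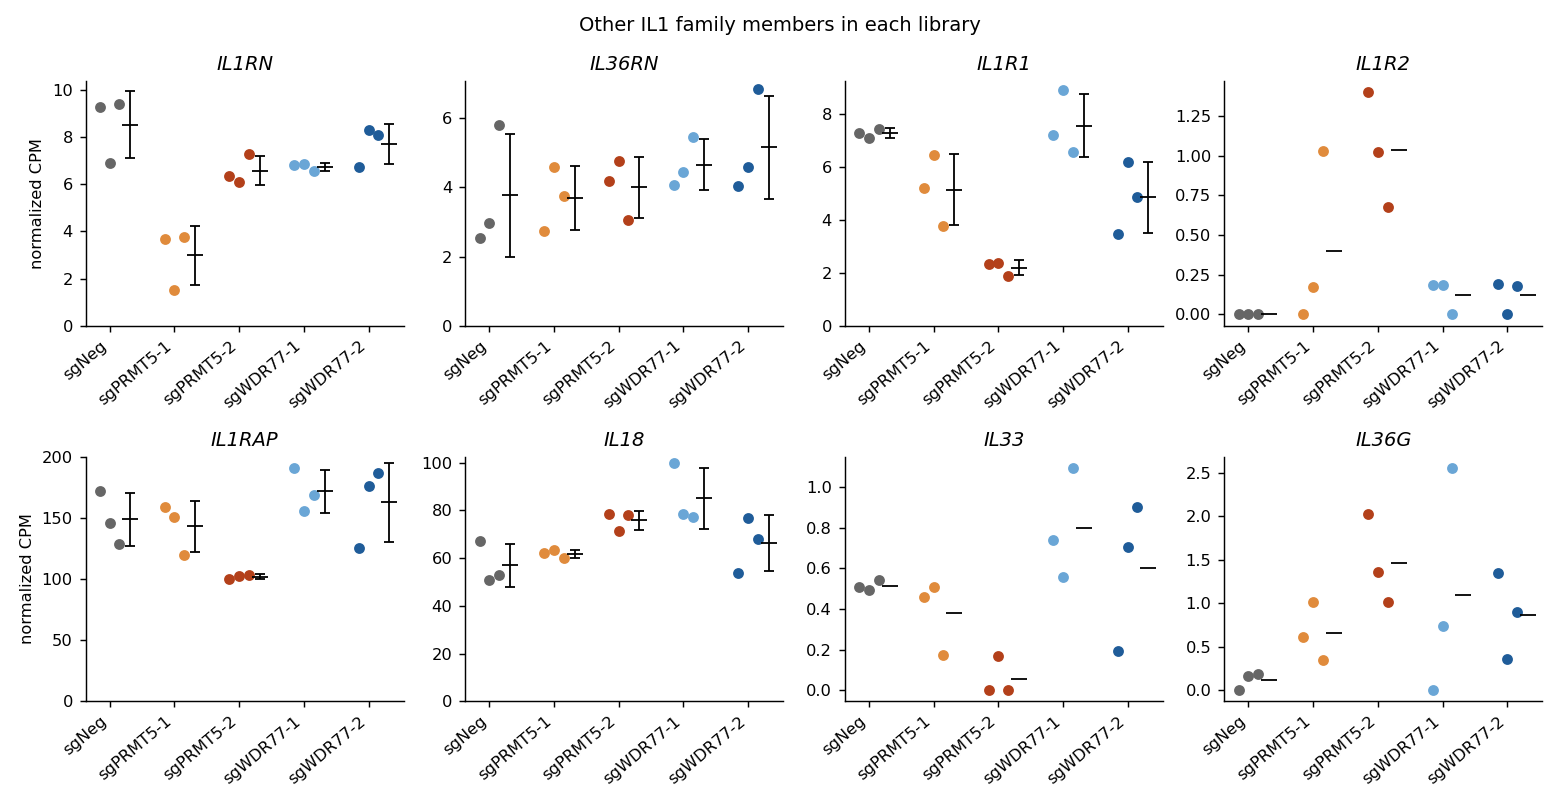
Normalized CPM (y axis) of the 8 other members in each library, by guide (x axis); points are libraries and black marks are group means, with SD (n = 3) where the gene has a mean of at least 10 counts. IL1RN is lowest in sgPRMT5-1, and IL1R1 and IL1RAP are lowest in sgPRMT5-2.

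The signalling receptor IL1R1 was read at 7.28, 7.07 and 7.44 CPM in sgNeg. It was at 5.19, 6.45 and 3.77 CPM in sgPRMT5-1 and at 2.33, 2.38 and 1.86 in sgPRMT5-2, from 15, 14 and 11 counts. Under sgWDR77-1 it was at 7.20, 8.88 and 6.57 CPM, and in sgWDR77-2 at 3.47, 6.18 and 4.86. The sgPRMT5-2 libraries were below all others. The sgPRMT5-1 and sgWDR77-2 libraries overlapped each other and lay below sgNeg, and sgWDR77-1 overlapped sgNeg. IL1R1 fell in sgPRMT5-2, with a log2 fold change of -1.70 (SE 0.303, adjusted p 0.000240). It did not pass the test in sgPRMT5-1 (-0.52, adjusted p 0.261), sgWDR77-1 (0.05, adjusted p 0.931) or sgWDR77-2 (-0.60, adjusted p 0.177). IL1R1 was lower in sgPRMT5-2 than in sgPRMT5-1, by -1.17 (SE 0.316, adjusted p 0.0255). That call was lost without sgPRMT5-1 replicate 1 (adjusted p 0.0906) or 2 (0.118), or sgPRMT5-2 replicate 1 (0.0862), 2 (0.0804) or 3 (0.106), over a range of 0.00858 to 0.118. IL1R1 shares 11 exon bases with IL1R1-AS1, which had 0 reads.

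The accessory receptor chain IL1RAP was read at 172, 146 and 129 CPM in sgNeg. It was at 159, 151 and 119.7 CPM in sgPRMT5-1 and at 99.96, 103 and 103 in sgPRMT5-2. Under sgWDR77-1 it was at 191, 156 and 169 CPM, and in sgWDR77-2 at 126, 176 and 187. Only sgPRMT5-2 lay apart, below every other library, with a mean of 102 CPM (SD 1.81) against 149 (SD 21.7) in sgNeg. IL1RAP fell in sgPRMT5-2 (log2 -0.54, SE 0.139, adjusted p 0.00531) and passed in no other group against sgNeg (-0.06, 0.21 and 0.12, adjusted p 0.867, 0.371 and 0.703). It was lower in sgPRMT5-2 than in sgPRMT5-1 by -0.48 (SE 0.139, adjusted p 0.0364). That call was lost without sgPRMT5-1 replicate 1 (adjusted p 0.195) or 2 (0.147), without sgPRMT5-2 replicate 1 (0.124), 2 (0.114) or 3 (0.0969), and with no filter on low counts (0.0760), over a range of 0.000934 to 0.195.

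The decoy receptor IL1R2 had 0 reads in all 3 sgNeg libraries and lay under the filter. It had 0, 1 and 6 reads in sgPRMT5-1 and 9, 6 and 4 in sgPRMT5-2, against 0 or 1 in each WDR77 library. The 95% counting interval of its ratio to sgNeg began at 4.48 in sgPRMT5-2 and at 1.38 in sgPRMT5-1, where replicate 3 had 6 of the 7 reads. For the WDR77 guides it began at 0.202 and 0.200, so no difference was detectable at this depth. With no filter on low counts, the only setting that tested it, IL1R2 rose in sgPRMT5-2 (log2 3.66, SE 0.478, adjusted p 3.67e-05) and passed with no other guide against sgNeg.

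Levels of different members can be compared per length, as CPM per kilobase of exon. Over the 15 libraries the mean was 137 for IL1A, 72.6 for IL1B, 26.6 for IL18 and 13.0 for IL1RAP. On that scale IL1RN was at 1.75, IL36RN at 1.33, IL1R1 at 0.758, IL36G at 0.612, IL33 at 0.144 and IL1R2 at 0.114. The agonists IL1A and IL1B were thus the abundant members, and their antagonist and receptor were scarce. The sum of IL1A and IL1B per kilobase, divided by IL1RN per kilobase, was 48.6, 55.2 and 37.3 in sgNeg. This ratio was 218, 555 and 209 in sgPRMT5-1, where the highest value rests on 9 reads of IL1RN, and 242, 245 and 219 in sgPRMT5-2. It was 80.4, 72.2 and 83.5 in sgWDR77-1, and 93.8, 77.3 and 76.8 in sgWDR77-2. All libraries with a targeting guide were above sgNeg, and all PRMT5 libraries above all WDR77 libraries. In sgPRMT5-1 the agonists were higher and the antagonist lower than in sgNeg, whereas in sgPRMT5-2 only the agonists passed the test. IL1RAP per kilobase, divided by IL1R1 per kilobase, was 15.03, 13.2 and 11.03 in sgNeg and 27.2, 27.4 and 35.3 in sgPRMT5-2, which do not overlap. In the other groups that ratio ran from 11.1 in sgWDR77-1 to 24.4 in sgWDR77-2. IL1B per kilobase was 0.457 (SD 0.0366) of IL1A in sgNeg, 0.582 (SD 0.0590) and 0.638 (SD 0.00929) with the PRMT5 guides, and 0.361 (SD 0.0230) and 0.443 (SD 0.0944) with the WDR77 guides. These ratios are descriptions and were not tested.

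**Figure D3:**
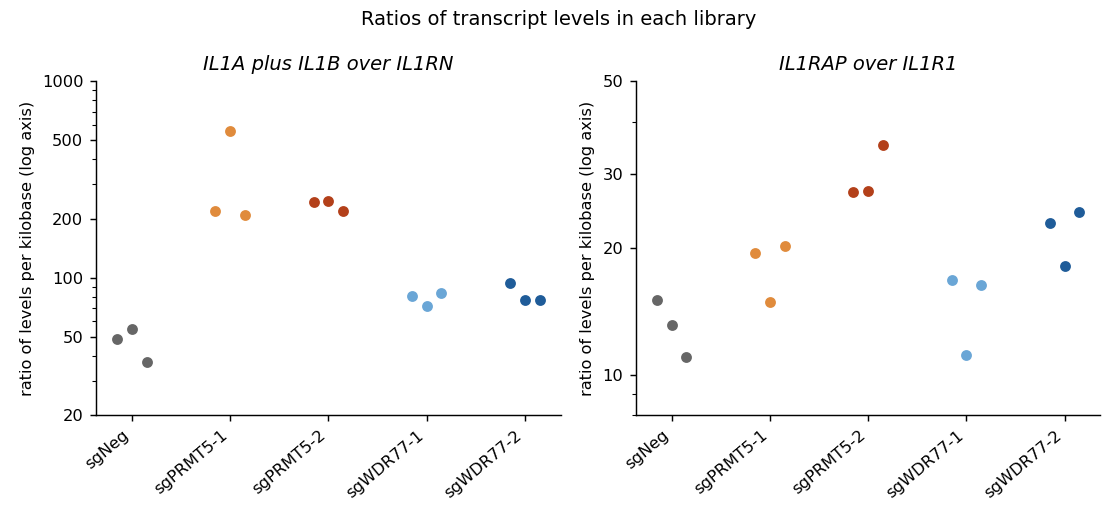
Ratio of IL1A plus IL1B to IL1RN (left) and of IL1RAP to IL1R1 (right), each from CPM per kilobase of exon, on log y axes, by guide (x axis); points are libraries. The first ratio is 37.3 to 55.2 in sgNeg and 209 to 555 with the PRMT5 guides, and the second is highest in sgPRMT5-2.

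Counted over the family, 8 of the 10 members passed the filter and IL1R2 and IL33 did not. In sgPRMT5-1, 2 members rose, IL1A and IL1B, against 1.26% of all genes tested, and 1 fell, IL1RN, against 1.61%. The median log2 fold change of the tested members was 0.08, and that of all genes 0.02. In sgPRMT5-2, 4 members rose (IL1A, IL1B, IL18 and IL36G) against 16.3% of all genes, and 2 fell (IL1R1 and IL1RAP) against 14.7%. The median was 0.30, beside 0.01 for all genes. With no filter on low counts IL1R2 and IL33 passed there too, a count of 8 in place of 6. That is another fit with more genes, and its share of all genes called is not given here. Those calls rest on 19 reads of IL1R2 against 0 in sgNeg and 1 read of IL33 against 9. In sgWDR77-1, 2 members rose, IL1A and IL18, against 3.58% of all genes, and 0 fell, against 5.9%. Without sgNeg replicate 3 only IL1A passed, a count of 1, and without sgWDR77-1 replicate 1 the count was 3. In sgWDR77-2, 2 members rose, IL1A and IL1B, against 1.81%, and 0 fell, against 2.98%. Member medians were 0.31 in sgWDR77-1 and 0.37 in sgWDR77-2, beside -0.01 and 0.02 for all genes. IL1A was the member that rose with all 4 guides.

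Between the PRMT5 guides, 3 members were higher in sgPRMT5-2 than in sgPRMT5-1 (IL1A, IL1B and IL1RN) against 3.55% of all genes, and 2 were lower (IL1R1 and IL1RAP) against 3.98%. The median was 0.59, beside -0.01 for all genes. The total of 5 fell to 3 without sgPRMT5-1 replicate 1 or sgPRMT5-2 replicate 1 or 2, and to 2 without sgPRMT5-1 replicate 2 or sgPRMT5-2 replicate 3. Between the WDR77 guides, 1 member was higher in sgWDR77-2, IL1B, against 1.84% of all genes, and 0 were lower, against 0.569%. That count was 0 without sgWDR77-1 replicate 2, sgWDR77-2 replicate 1 or sgWDR77-2 replicate 2. With the guides of each gene averaged, 2 members were higher with PRMT5 than with WDR77 guides (IL1A and IL1B) against 15.7% of all genes, and 3 were lower against 11.4%. The lower members were IL1RN (log2 -0.74, adjusted p 0.00597), IL1R1 (-0.83, adjusted p 0.00416) and IL1RAP (-0.46, adjusted p 0.00139). For each of these 3 members the PRMT5 and WDR77 libraries overlapped.

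**Figure D4:**
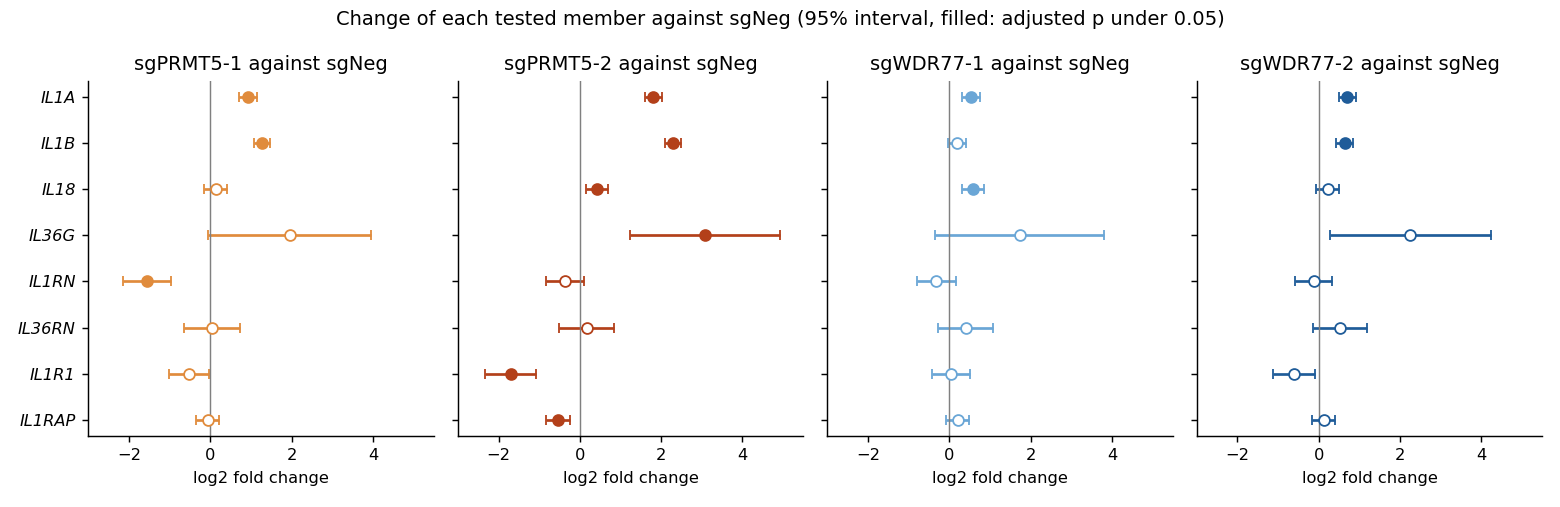
Log2 fold change against sgNeg (x axis) of the 8 tested members (y axis) for each guide, with 95% confidence intervals; filled points have an adjusted p under 0.05. IL1A lies above 0 with all 4 guides, from 0.53 to 1.80, and IL1B reaches 2.29 in sgPRMT5-2.

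Other IL1 family genes were mostly silent. Of 12 listed, 4 had enough reads to be tested, and IL36A had 0 reads in all libraries, IL1F10 and IL18RAP 3 each, and IL37 8. SIGIRR, an inhibitory receptor, was the most abundant per kilobase of exon, at 3.53 CPM over all libraries, and did not pass the test with any guide. IL1RL1, the receptor of IL33, had 28, 29 and 16 counts in sgNeg, 32, 27 and 32 in sgPRMT5-1, and 152, 134 and 136 in sgPRMT5-2. It had 23, 13 and 17 counts in sgWDR77-1 and 30, 12 and 18 in sgWDR77-2, so sgPRMT5-2 stood far above the rest. IL1RL1 rose there by 2.48 on the log2 scale (SE 0.243, adjusted p 1.84e-07), while its ligand IL33 had 1 read over the same 3 libraries. IL18R1, the receptor of IL18, had 24, 24 and 17 counts in sgNeg and 47, 38 and 54 in sgPRMT5-2, where it rose by 1.02 (SE 0.242, adjusted p 0.00296). IL1RL1 and IL18R1 share 95 exon bases on the same strand. In sgPRMT5-2, 2 of the 4 tested genes rose and 0 fell, beside 16.3% and 14.7% of all genes, with a median of 0.49, and with the other guides 0 passed in either direction, with medians of 0.04, -0.29 and -0.38. With no filter on low counts, 1 fell in sgWDR77-1.

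Genes that process or release the cytokines were read next. PYCARD, the adaptor of the inflammasome, and NLRP10 had 0 reads in all 15 libraries, and NLRP3 had 15 reads in total. CASP1, which cleaves IL1B and IL18, was at 46.7, 33.4 and 34.3 CPM in sgNeg and at 17.7, 19.0 and 19.3 in sgPRMT5-2, without overlap. CASP1 fell in sgPRMT5-2 by -1.01 (SE 0.178, adjusted p 0.000201), in the group where its substrate IL1B was highest. CAPN2, a subunit of the calpain that can cleave IL1A, was at 238, 223 and 248 CPM in sgNeg, 295, 295 and 334 in sgPRMT5-1, and 379, 398 and 387 in sgPRMT5-2. It rose in sgPRMT5-2 by 0.72 (SE 0.0861, adjusted p 2.62e-06) and in sgPRMT5-1 by 0.38 (SE 0.0867, adjusted p 0.0164). The latter call was lost without sgNeg replicate 1 (log2 0.36) or 2 (log2 0.32), or sgPRMT5-1 replicate 2 (log2 0.39) or 3 (log2 0.29). GSDMD, a pore protein, fell in sgPRMT5-2 by -0.75 (SE 0.223, adjusted p 0.0141), as did CASP4 by -0.44 (SE 0.138, adjusted p 0.0191). The call of CASP4 was lost without sgNeg replicate 1 (-0.33) or sgPRMT5-2 replicate 1 (-0.43) or 2 (-0.44). CAPNS1, the other calpain subunit, was the most abundant gene of the list per kilobase of exon, at 61.2 CPM. CAPN1 fell in sgWDR77-1 by -0.39 (SE 0.122, adjusted p 0.0472), a call lost without sgNeg replicate 1 (-0.38) or 3 (-0.37) or sgWDR77-1 replicate 1 (-0.19). It was lost as well by library totals, with no filter, with the replicate block and with only the groups compared, and CAPN1 shares 433 exon bases with CAPN1-AS1. Of 11 tested genes of 16 listed, 1 rose and 0 fell in sgPRMT5-1, 1 rose and 3 fell in sgPRMT5-2, 0 rose and 1 fell in sgWDR77-1, and 0 passed in sgWDR77-2. Over all genes the shares that rose and fell were 1.26% and 1.61% in sgPRMT5-1, 16.3% and 14.7% in sgPRMT5-2, 3.58% and 5.9% in sgWDR77-1, and 1.81% and 2.98% in sgWDR77-2, so the count in sgPRMT5-2 stands beside a high share of all genes. In sgPRMT5-2 the number that rose was 2 without sgNeg replicate 2, and with only the groups compared 2 rose and 4 fell. Their medians were -0.02, -0.16, 0.05 and -0.02.

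In the signalling chain below the receptor, 15 of 16 genes had enough reads to be tested, and IRAK3 had 28 reads over all libraries. IRAK1 was the most abundant of them per kilobase of exon, at 37.5 CPM. TAB2, a binding partner of the kinase MAP3K7, had the highest CPM without regard to length and passed with no guide against sgNeg. IRAK2, a kinase recruited by MYD88, was at 11.5, 8.22 and 8.16 CPM in sgNeg and at 25.0, 28.6 and 29.9 in sgPRMT5-2, where it rose by 1.58 (SE 0.246, adjusted p 5.41e-05). IRAK1 rose there by 0.49 (SE 0.133, adjusted p 0.00711). PELI2, a ubiquitin ligase for IRAK proteins, fell in sgPRMT5-2 by -1.38 (SE 0.311, adjusted p 0.00189) and in sgPRMT5-1 by -1.17 (SE 0.298, adjusted p 0.0327). The latter call was lost without sgNeg replicate 1 (-1.16) or 2 (-1.14), or sgPRMT5-1 replicate 2 (-1.16) or 3 (-1.03), with no filter, with the replicate block and by limma-trend. TAB3 rose in sgWDR77-1 by 0.45 (SE 0.0995, adjusted p 0.00630), a call lost with only the groups compared (adjusted p 0.0671, range 0.000991 to 0.0671), and in sgPRMT5-2 by 0.27 (SE 0.0996, adjusted p 0.0410). Its call in sgPRMT5-2 was lost without any 1 of the 6 libraries compared, at log2 0.20 to 0.29, under both other scalings and with no filter. Of 15 tested genes, 0 rose and 1 fell in sgPRMT5-1 (beside 1.26% and 1.61% of all genes), 5 rose and 2 fell in sgPRMT5-2 (beside 16.3% and 14.7%), 1 rose and 1 fell in sgWDR77-1 (beside 3.58% and 5.9%), and 0 passed in sgWDR77-2 (beside 1.81% and 2.98%). In sgWDR77-1, 0 fell without sgNeg replicate 3 or sgWDR77-1 replicate 1, and 0 passed with only the groups compared. Without sgWDR77-1 replicate 1, 2 rose, as IRAK2 gained a call there (0.99, adjusted p 0.0198). In sgWDR77-2, 1 fell without its replicate 3, which was PELI2 (-1.31, adjusted p 0.0259). In sgPRMT5-1, 0 passed in the settings without the call of PELI2. In sgPRMT5-2 the number that rose was 3 without sgNeg replicate 2 or 3 or sgPRMT5-2 replicate 1 or 2, and the number that fell was 1 without sgNeg replicate 2 or 3 or sgPRMT5-2 replicate 1 or 3, or with no filter. The medians of the list were 0.04, 0.06, -0.00019 and -0.05.

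Genes that IL1 can induce were listed to read the output of the pathway, though many other signals raise them too. CSF2, a growth factor of myeloid cells, had 3, 8 and 3 counts in sgNeg, 44, 34 and 24 in sgPRMT5-1, and 188, 180 and 150 in sgPRMT5-2. It had 4, 14 and 10 counts in sgWDR77-1 and 6, 5 and 2 in sgWDR77-2. CSF2 was thus high with the PRMT5 guides alone, and rose by 2.77 (SE 0.499, adjusted p 0.00279) in sgPRMT5-1 and by 5.13 (SE 0.471, adjusted p 7.63e-08) in sgPRMT5-2. PTGS2, a prostaglandin synthase, had 129, 160 and 118 counts in sgNeg, 225, 207 and 176 in sgPRMT5-1, and 464, 409 and 436 in sgPRMT5-2. It rose in sgPRMT5-2 by 1.63 (SE 0.132, adjusted p 1.00e-08) and in sgPRMT5-1 by 0.52 (SE 0.142, adjusted p 0.0490). The latter call was lost without any 1 of the 6 libraries compared, at log2 0.42 to 0.60. It was also lost under both other scalings, with no filter, with the replicate block and by limma-trend. IL6 had 21, 38 and 51 counts in sgNeg and 166, 132 and 132 in sgPRMT5-2, where it rose by 1.99 (SE 0.264, adjusted p 9.45e-06). It passed in sgWDR77-2 only without sgNeg replicate 3 (log2 1.20) or sgWDR77-2 replicate 2 (log2 1.20).

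ICAM1, an adhesion molecule, was at 175, 115 and 116 CPM in sgNeg, 234, 230.0 and 189 in sgPRMT5-1, 255, 267 and 260.4 in sgPRMT5-2, and 258, 237 and 285 in sgWDR77-1. All 9 of these targeted libraries were above sgNeg. ICAM1 rose by 0.71 (adjusted p 0.00425), 0.97 (adjusted p 1.34e-05) and 0.96 (adjusted p 7.78e-05) in those groups, and 23.6% of its exon bases overlap ICAM4-AS1. It passed in sgWDR77-2 only without sgNeg replicate 1 (log2 0.58). CXCL8, a chemokine, was the most abundant gene of the list per kilobase of exon, at 159 CPM over all libraries. TNFAIP2 was at 989, 929 and 864 CPM in sgNeg and at 492, 475 and 463 in sgPRMT5-2. It fell there by -0.96 (SE 0.141, adjusted p 3.00e-05) and in sgWDR77-2 by -0.56 (SE 0.140, adjusted p 0.0210). The latter call was lost without sgNeg replicate 1 (-0.54) or 2 (-0.57) or sgWDR77-2 replicate 1 (-0.45).

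IRAK2 is in this list as well as among the signalling genes and counts in both. Of the 18 listed inducible genes, all tested, 3 rose and 0 fell in sgPRMT5-1, with a median of 0.15, beside 1.26% and 1.61% of all genes. In sgPRMT5-2, 8 rose and 2 fell, with a median of 0.29, beside 16.3% and 14.7%. In sgWDR77-1, 8 rose and 0 fell, with a median of 0.61, beside 3.58% and 5.9%, and leaving out 1 library gave 4 (sgNeg replicate 3) to 10 (sgWDR77-1 replicate 1) that rose. In sgWDR77-2, 1 rose and 1 fell, with a median of 0.20, beside 1.81% and 2.98%. There 3 rose without sgWDR77-2 replicate 1 and 0 without its replicate 3 or with no filter, and 0 fell without sgNeg replicate 1 or 2 or sgWDR77-2 replicate 1. The medians of all genes in those comparisons were 0.02, 0.01, -0.01 and 0.02. Between the averaged PRMT5 and WDR77 guides, 5 were higher and 5 lower (median -0.23), beside 15.7% and 11.4% of all genes. In sgPRMT5-2 against sgPRMT5-1, 6 were higher and 1 lower (median 0.35), beside 3.55% and 3.98%. In sgWDR77-2 against sgWDR77-1, 1 was higher and 4 lower (median -0.48), beside 1.84% and 0.569%. How these counts change with a library left out is not given.

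**Figure D5:**
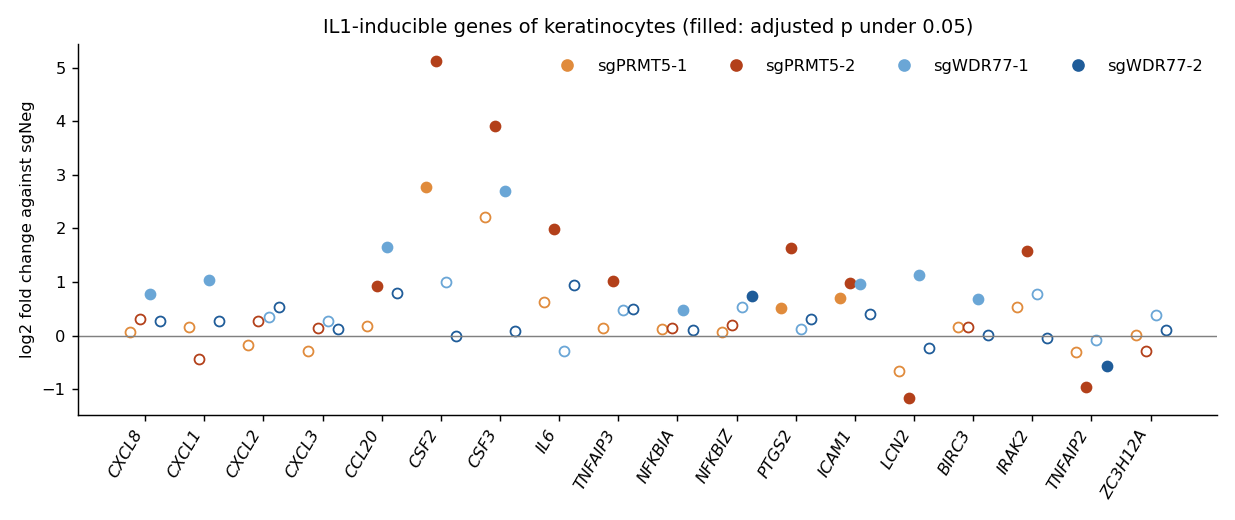
Log2 fold change against sgNeg (y axis) of the 18 IL1-inducible genes (x axis), with a point for each guide, told apart by colour; filled points have an adjusted p under 0.05. CSF2 reaches 5.13 in sgPRMT5-2, and 8 genes rise in sgPRMT5-2 and 8 in sgWDR77-1.

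The genes whose log2 CPM followed IL1A most closely over the 15 libraries, among 11843 genes, were TAF13 (Pearson r 0.963), MYL12A (0.957), CLMP (0.955), TNIP1 (0.954) and IL1B itself (0.951). The 3 closest to IL1B were CDCP1 (0.983), RSPRY1 (0.980) and ITGA5 (0.980). The libraries share 5 group means, so these values describe likeness across the groups and carry no test. ITGA5, an integrin chain, averaged 96.3 CPM in sgNeg, 148 and 233 with the PRMT5 guides, and 95.1 and 113 with the WDR77 guides.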

How the data were processed

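RNA of HSC5 cells was sequenced in 15 libraries. The deposited values are whole-number read counts per gene, which the authors made with STAR on hg38 and HTSeq and tested with DESeq2. The summary entries of HTSeq were left out. TMM factors (trims of 0.3 and 0.05) were computed, and limma voom (limma 3.58.1, R 4.3.3) was fitted to all 5 groups at once, on genes with a mean of at least 3 normalized counts, with Benjamini-Hochberg adjustment and a threshold of 0.05. The fit was tested on simulated data with a common spread, no outlying library, and changes only in genes of many reads. That test does not cover members of few reads or libraries apart from their group. Members and lists were chosen with earlier results of these data known. Named from each list were the 4 smallest adjusted p-values against sgNeg among genes that passed, the gene of highest CPM, and the most abundant per kilobase. Likeness was Pearson's r of log2 CPM with a prior count of 2, among genes with a mean of at least 10 counts. Exon lengths and positions came from GENCODE, matching 60507 of 60649 entries. Alternatives were other scalings, other filters, limma-trend, a replicate block, only the groups compared, and each library left out. The depth of 5146711 to 6730428 reads limits genes with few reads. The labels name TruSeq Stranded mRNA LT as the library kit, and the paper another TruSeq kit.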

Additional observations from a re-analysis of the deposited data

Results flagged for a closer look

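Several members differed between the guides of the same gene, by a test of that difference in the limma voom fit. Between sgPRMT5-2 and sgPRMT5-1 the log2 difference was 0.88 for IL1A, 1.01 for IL1B, 1.21 for IL1RN, -1.17 for IL1R1 and -0.48 for IL1RAP. Between sgWDR77-2 and sgWDR77-1 it was 0.45 for IL1B. Members also differed between the targeted genes, by the same kind of test on the mean of both guides. That test measures the spread between libraries and not that between the guides of a gene. The log2 difference of PRMT5 from WDR77 guides was 0.75 for IL1A, 1.37 for IL1B, -0.74 for IL1RN, -0.83 for IL1R1 and -0.46 for IL1RAP. For all of these but IL1B, the PRMT5 guides differed from each other by more than that, in absolute size. For the last 3 members the PRMT5 and WDR77 libraries overlapped, and a single guide lay below all other libraries, sgPRMT5-1 for IL1RN and sgPRMT5-2 for IL1R1 and IL1RAP. With 3 libraries per group, no outlier test was made. Leaving out some single libraries lost the calls of IL1RN, IL1R1 and IL1RAP between the PRMT5 guides and that of IL1B between the WDR77 guides.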

How the results depend on the processing

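The number of members that passed kept within 1.5 times its value under every alternative with all libraries, except between the WDR77 guides, where it went from 1 to 0 with only the groups compared in the fit. Leaving out 1 library gave 1 to 3 members in sgWDR77-1 against sgNeg (2 with all), 2 to 5 between the PRMT5 guides (5 with all) and 0 to 1 between the WDR77 guides (1 with all); fewer libraries were then fitted, and which property of each library mattered was not tested. Replicate numbers showed no pairing across groups: by deviations from the group means, 4 of 15 libraries correlated best with one of their own number. The median r was -0.00565 for pairs of the same number and 0.00200 for other pairs. Some libraries of different numbers deviated alike, most of all sgPRMT5-1 replicate 3 and sgWDR77-2 replicate 1 (r 0.456). A block by replicate number does not model this. With replicate as a block the counts were 3, 6, 2 and 2 against sgNeg, and 5, 1 and 5 for the other comparisons, as without it. No call reversed its direction. Of 384 values of members with 1 library left out, 362 stayed on their side of the threshold, 21 lost their call and 1 gained it. Scaling by library totals alone lowered the share of called genes that were higher, from 52.6% to 37.9% in sgPRMT5-2, from 43.8% to 27.1% in sgPRMT5-1, from 37.8% to 29.6% in sgWDR77-2, from 47.1% to 40% and from 76.4% to 59.8% between the guides of PRMT5 and of WDR77, and from 57.8% to 41% between the genes. In sgWDR77-1 it went from 37.7% to 40.8%. Under this scaling all 56 member results kept their call; IL36RN in sgPRMT5-1, which did not pass, went from 0.04 to -0.03. IL36G was not tested with a minimum of 10 counts. The edgeR quasi-likelihood test and DESeq2, planned as alternatives, were not run, because the unit check did not recognise the deposited columns as counts. Depth limits IL1R2, IL33 and IL36G most.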

Other observations

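The genes beside the ligands on chromosome 2 did not all follow IL1A and IL1B. CKAP2L, next to IL1A, rose in sgPRMT5-2 by 0.36 on the log2 scale (limma voom, adjusted p 0.0216) and did not pass with the other guides (adjusted p 0.263, 0.412 and 0.134). PSD4, beyond IL1RN, changed by -0.02 in sgPRMT5-2 (adjusted p 0.956). Between them, IL37 had 8 reads over all 15 libraries, IL36A 0 and IL36B 17. In the receptor cluster, IL1R1 fell and IL1RL1 and IL18R1 rose in sgPRMT5-2, and IL1RL2 had 28 reads in all.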
